A study of Mus musculus with 6 samples.

Results

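The genes described here are 10 genes of the neuronal microtubule cytoskeleton: Map1b, Map2, Mapt, Dcx, Stmn1, Stmn2, Stmn3, Tubb3, Tubb2b and Tuba1a. They were found by symbol among the 51912 gene identifiers of the count table, and all 10 were present. The set was chosen from a measured value, the rise of Map1b between the time points, with the other genes added to ask whether they followed it. The values of these genes at 24 h and 48 h are therefore given as a description, with no test of their own. The cells were R1 mouse embryonic stem cells, an established line, kept in 2iLIF (inhibitors of MEK and GSK3 with the cytokine LIF). They were then moved to the serum-free medium N2B27, which held 100 ng/ml of FGF2, in all libraries. Libraries for messenger RNA were sequenced after 24 h (3 libraries) and after 48 h (3 libraries). Libraries from 2iLIF or from N2B27 without FGF2 were not analysed here, so FGF2, the change of medium and time in culture cannot be told apart.

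Microtubules are polymers of alpha- and beta-tubulin, each encoded by several genes whose products, the isotypes, differ mainly in a short acidic tail. In neurons, structural microtubule-associated proteins (MAPs) bind along the polymer and stabilise it: MAP2 in dendrites, tau (Mapt) in axons and MAP1B in growing axons. Doublecortin (Dcx) binds microtubules of migrating young neurons. Stathmins bind free tubulin dimers and promote disassembly. Tubb3 (class III beta-tubulin) and Dcx are widely used as markers of new neurons, whereas Stmn1 and Tuba1a are also abundant in dividing cells.

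The libraries held between 19574969 and 23133148 estimated counts. Whether the replicates of a time point were separate cultures is not stated in the labels, so the errors and p-values below measure the spread between these libraries, which may be technical. Each pair of replicates differed by more than counting noise (chi-square of the counts per degree of freedom, 1.82 to 2.22), and no library was merged with another. Nanog was among the most abundant of the 7 naive pluripotency markers. It stood at 694.7 ± 24.6 CPM (counts per 1000000, TMM-scaled, mean ± SD, n = 3) at 24 h and at 174.4 ± 6.47 CPM at 48 h. Prdm14, the lowest of these markers, had 664 to 824 counts per library at 24 h and 109 to 143 at 48 h. In bulk RNA, fewer cells of a type and less RNA per cell cannot be told apart.

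The 10 genes did not move together. Of the 8 with enough counts to enter the fit, 4 were higher at 48 h (Map1b, Map2, Tuba1a and Stmn1) and 4 were lower (Mapt, Stmn2, Tubb2b and Tubb3), each past the threshold of 0.05 on p-values from edgeR's quasi-likelihood test, adjusted over all genes tested. Over all 14889 genes tested, 62.8% were called in either direction, 30.9% higher and 31.9% lower, and nothing is read from the count of members, since this contrast chose them. Fitted changes of at least 2-fold belonged to Map1b and Mapt, against 11.2% of all genes tested with a called change of that size. In each of the 8 genes the 24 h and 48 h values did not overlap, as was the case for 66.9% of all genes tested. The median log2 fold change of the 8 was -0.13, and that of all genes tested was -0.01. Each of the 8 had at least 39 counts in every library, so none entered the fit through one time point alone. Dcx and Stmn3 were too low to be tested.

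**Figure D1:**
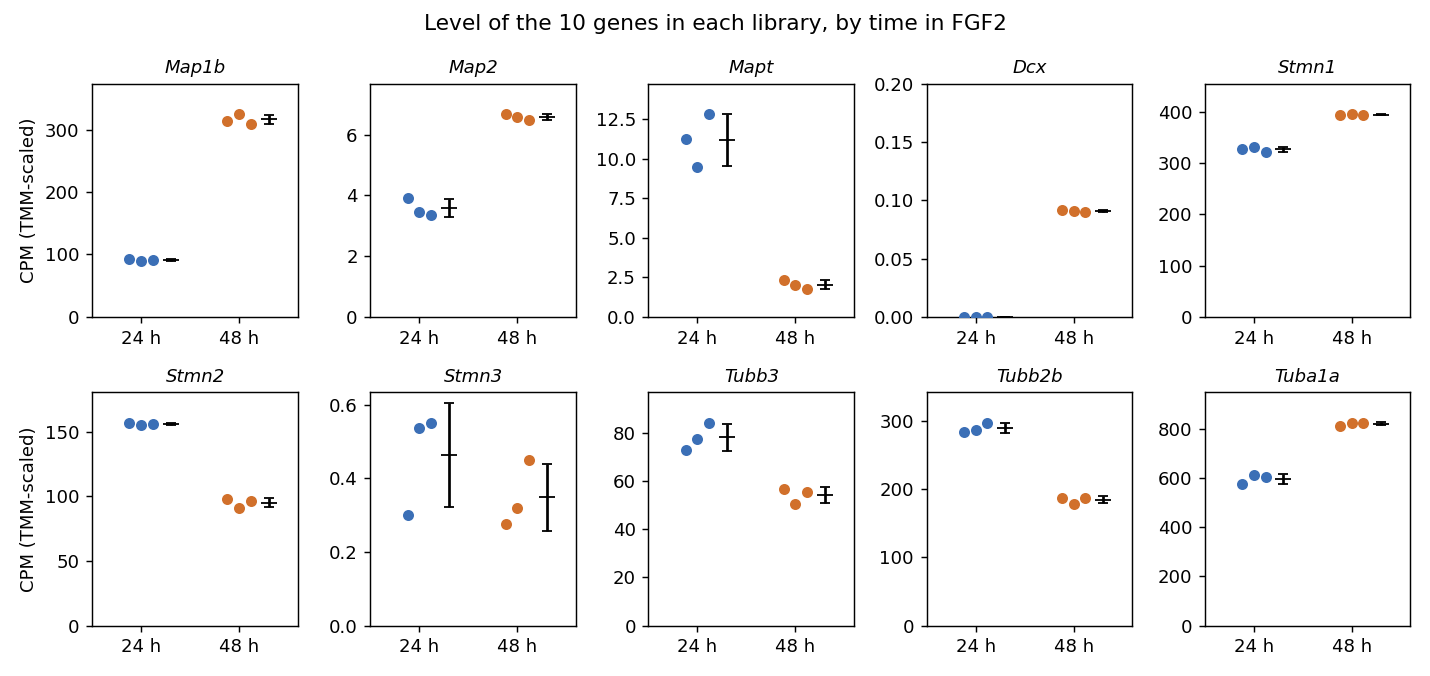
CPM of each of the 10 genes (vertical axes, TMM-scaled counts per 1000000, a different range per gene and starting at 0) in the 3 libraries at 24 h (blue) and at 48 h (orange); black bars give mean ± SD. Map1b, Map2, Stmn1 and Tuba1a sit higher at 48 h, Mapt, Stmn2, Tubb3 and Tubb2b lower, and Stmn3 overlaps between the times.

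Among the structural MAPs, Map1b and Map2 rose while Mapt fell. Map1b (ENSMUSG00000052727, protein-coding, GRCm38 chr13:99421446-99516540, minus strand) encodes the earliest MAP of developing neurons and growing axons. Its levels were 92.3, 88.8 and 90.5 CPM at 24 h and 314.6, 325 and 309.8 CPM at 48 h. The replicates lay close together at each time and the groups were far apart. The means were 90.5 ± 1.75 and 316.5 ± 7.76 CPM (SD, n = 3), a 3.50-fold rise (log2 fold change 1.81, standard error 0.03). This was the 239th largest fitted rise among 4600 genes called higher. The counts behind it, 1819 to 2135 per library at 24 h and 6836 to 7111 at 48 h, were whole numbers in all 6 libraries.

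Map2 (ENSMUSG00000015222, GRCm38 chr1:66175273-66442583, plus strand), the dendritic MAP, followed Map1b in direction but at a far lower level. It stood at 3.91, 3.47 and 3.35 CPM at 24 h and at 6.67, 6.58 and 6.50 CPM at 48 h. Every 48 h library was above every 24 h library. The fitted rise was 1.85-fold (log2 fold change 0.88, standard error 0.11), from 71 to 79 counts per library at 24 h and 144 to 145 at 48 h. An exon of Map2 overlaps the antisense gene Gm10558, which had 0 counts in all 6 libraries.

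Mapt (ENSMUSG00000018411, GRCm38 chr11:104231390-104332090, plus strand), which encodes tau, went the other way and had the largest change of the 8 tested genes. Its levels were 11.3, 9.52 and 12.8 CPM at 24 h and 2.35, 2.01 and 1.76 CPM at 48 h. The lowest 24 h library was well above the highest 48 h library, although the replicates spread more, relative to their mean, than those of Map1b. Mean levels were 11.2 ± 1.66 and 2.04 ± 0.295 CPM (SD, n = 3), a 5.51-fold fall (log2 fold change -2.46, standard error 0.14), the 120th largest among 4745 genes called lower. The 48 h libraries held 51, 44 and 39 counts, all whole numbers.

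Dcx (ENSMUSG00000031285, GRCm38 chrX:143855842-143933311, minus strand) was barely detected at either time. It had 0 counts in each 24 h library and 2 in each 48 h library. A count of 0 allows up to 3 counts, which is 0.13 to 0.15 CPM in the 24 h libraries, and the 48 h values were below that limit too. No fold change is given, and a difference was not detectable at this depth. These limits cover counting error only.

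The tested stathmin genes split in direction. Stmn1 (ENSMUSG00000028832, GRCm38 chr4:134468320-134473843, plus strand), the stathmin of dividing cells, stood at 326.7, 332.4 and 321.9 CPM at 24 h and at 393.3, 395.7 and 393.8 CPM at 48 h. The 3 libraries at 48 h were nearly equal and all above those at 24 h. The rise was 1.21-fold (log2 fold change 0.27, standard error 0.02), the smallest change of the 8 genes. Stmn2 (ENSMUSG00000027500, GRCm38 chr3:8509360-8561606, plus strand), a membrane-anchored stathmin of neurons also called SCG10, had the opposite course. It stood at 157, 155.3 and 156.4 CPM at 24 h and at 98.1, 91.05 and 96.8 CPM at 48 h, with every 48 h library below every 24 h library. The fall was 1.64-fold (log2 fold change -0.71, standard error 0.03). Stmn3 (ENSMUSG00000027581, GRCm38 chr2:181306459-181314500, minus strand), another neuronal stathmin, had 6, 11 and 13 counts at 24 h and 6, 7 and 10 at 48 h. Its means of 0.463 ± 0.141 and 0.349 ± 0.091 CPM (SD, n = 3) overlapped.

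The tubulin genes also split. Tuba1a (ENSMUSG00000072235, GRCm38 chr15:98949837-98953703, minus strand), an alpha-tubulin of the developing brain, had the highest level of the 10 genes, in CPM and per length. It rose from 574.6, 610.7 and 602.9 CPM to 812.3, 824 and 821.2 CPM, 1.37-fold (log2 fold change 0.46, standard error 0.02). The 3 libraries at 48 h were close to each other and all above the highest at 24 h. Both beta-tubulins among the 10 genes fell. Tubb2b (ENSMUSG00000045136, GRCm38 chr13:34126748-34130466, minus strand), a class II beta-tubulin of the developing brain, stood at 282.8, 286.5 and 296.7 CPM at 24 h and at 187.1, 178.2 and 187.1 CPM at 48 h. All 48 h libraries were below all 24 h libraries, a 1.57-fold fall (log2 fold change -0.65, standard error 0.03). Tubb3 (ENSMUSG00000062380, GRCm38 chr8:123411424-123422015, plus strand), the class III isotype, had 73, 77.3 and 84.2 CPM at 24 h and 56.8, 50.5 and 55.6 CPM at 48 h. Its replicates spread more, relative to their mean, than those of Tubb2b, without overlap between the times. The fall was 1.44-fold (log2 fold change -0.53, standard error 0.05).

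Tubulin genes resemble each other so closely that part of their reads can be assigned to several genes, and RSEM then divides them, which gives fractional counts. Over the whole coding sequence in GENCODE M21, Tuba1a was 98.3% identical to Tuba1b and 97.6% to Tuba1c, with a run of 446 identical bases shared with Tuba1c.

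Other alpha-tubulins were less like Tuba1a, from 79.2% identical for Tuba8 to 85.3% for Tuba4a. In the beta-tubulins, the end of the coding sequence encodes the tail by which isotypes are told apart. The last 75 coding bases, stop codon included, are shown for the most abundant isotype, Tubb5 (chr17:35834982-35835056, minus strand), for Tubb4b (chr2:25222308-25222382, minus strand), for the near-identical pair Tubb2a (chr13:34074468-34074542, minus strand) and Tubb2b (chr13:34127471-34127545, minus strand), and for Tubb3 (chr8:123421608-123421682, plus strand). They come from GENCODE M21 transcripts on GRCm38 and are written 5′ to 3′. Capitals mark bases that differ from Tubb5, or have no partner in it, when the coding sequences are aligned over their full length. The marks depend on where the alignment places its gaps, and do not mark differences between Tubb2a and Tubb2b.
Tubb5: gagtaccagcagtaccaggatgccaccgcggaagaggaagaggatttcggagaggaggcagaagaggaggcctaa
Tubb4b: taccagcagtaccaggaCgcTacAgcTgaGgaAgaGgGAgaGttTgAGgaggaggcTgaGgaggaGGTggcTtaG
Tubb2a: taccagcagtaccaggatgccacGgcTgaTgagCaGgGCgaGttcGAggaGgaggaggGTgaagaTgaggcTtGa
Tubb2b: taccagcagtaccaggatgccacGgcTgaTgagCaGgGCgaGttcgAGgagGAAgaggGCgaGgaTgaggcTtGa
Tubb3: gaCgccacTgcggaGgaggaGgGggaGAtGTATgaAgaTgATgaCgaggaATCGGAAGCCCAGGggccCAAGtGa
Tubb3 departed from Tubb5 at 35 of these 75 bases, against 19 for Tubb2b and 20 for Tubb4b. Tubb2b and Tubb2a were 96.5% identical over the coding sequence, with a shared run of 551 bases, whereas Tubb2b and Tubb3 were 84.5% identical.

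The likeness was set beside the counts. Of all stretches of 50 bases in the longest coding transcript, 75.5% in Tuba1a, 39.3% in Tubb2b and 36.5% in Stmn1 also occur in a transcript of another gene, on either strand. These 3 genes had fractional counts in all 6 libraries, so part of each value depends on that division and is uncertain. Tubb3, Stmn2, Stmn3, Map1b and Mapt shared 0 stretches, and Map2 and Dcx 0.3% each. Tubb3 had a fractional count in 2 libraries and Stmn2 in 1. For Stmn1 the main partner is the processed pseudogene Gm11223, which held 67.7 to 295.5 counts per library against 6525 to 8731 for Stmn1. For Tubb2b it is Tubb2a, which moved the same way: Tubb2a averaged 32.9 ± 1.83 CPM at 24 h and 20.2 ± 3.05 CPM at 48 h (SD, n = 3), a log2 fold change of -0.71 (edgeR adjusted p = 8.09e-07). Tubb2a shared 49.6% of its stretches and had fractional counts in all 6 libraries. Its value therefore also depends on how reads were divided with Tubb2b, and the 2 changes are not independent.

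**Figure D2:**
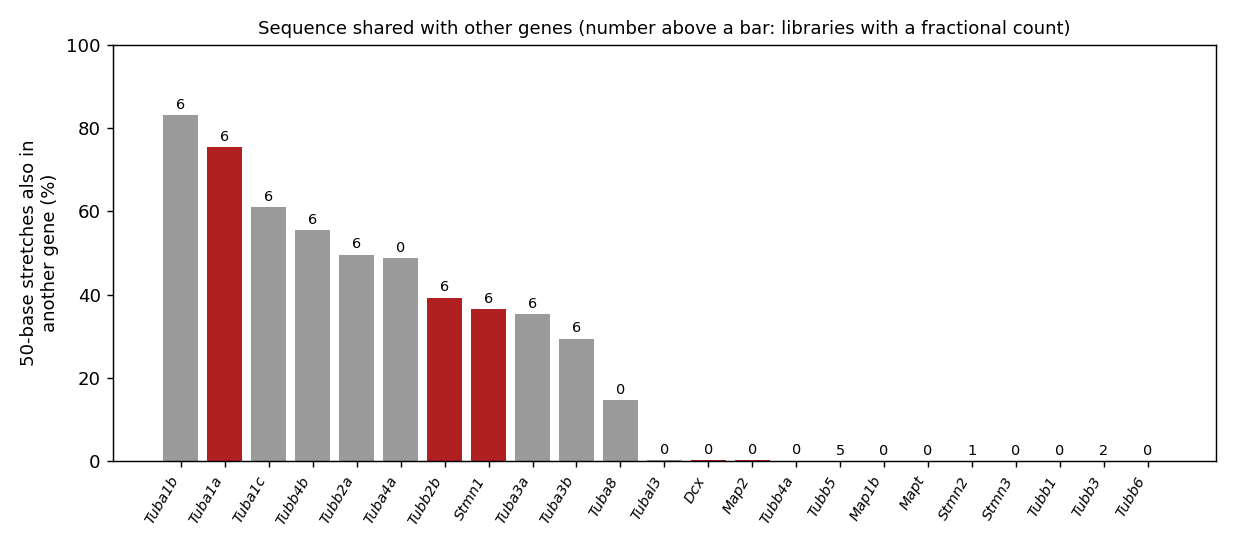
Share of the 50-base stretches of each gene's longest coding transcript that also occur in a transcript of another gene (vertical axis, %), for the 10 genes described (red) and the other alpha- and beta-tubulin genes (grey); the number above a bar is the count of libraries with a fractional count. Tuba1a, Tubb2b and Stmn1 carry 75.5%, 39.3% and 36.5%, and Map1b, Mapt, Stmn2, Stmn3 and Tubb3 none.

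The order of the 10 genes was then compared per transcript length, since CPM favours long messages such as that of Map1b (11808 bases in its longest coding transcript, against 1060 for Stmn1). At 24 h the level per kilobase, scaled as TPM to a sum of 1000000 per library, was 763 ± 24 for Tuba1a, 712 ± 11.6 for Stmn1, 305.3 ± 7.46 for Tubb2b, 174 ± 1.01 for Stmn2 and 96.6 ± 6.91 for Tubb3 (SD, n = 3). Map1b followed at 17.7 ± 0.347, Mapt at 4.92 ± 0.728, Map2 at 1.32 ± 0.109 and Stmn3 at 0.940 ± 0.286. No neighbours in this order overlapped between libraries at 24 h. At 48 h Map1b had reached 60.8 ± 1.72 on the same scale, and its libraries overlapped those of Tubb3 at 66 ± 3.98. Mapt had fallen to 0.881 ± 0.131, below Map2 at 2.39 ± 0.043, and overlapped Stmn3 at 0.697 ± 0.178. Per length, Tuba1a and Stmn1 thus stood more than 10 times above Map1b at both times.

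**Figure D3:**
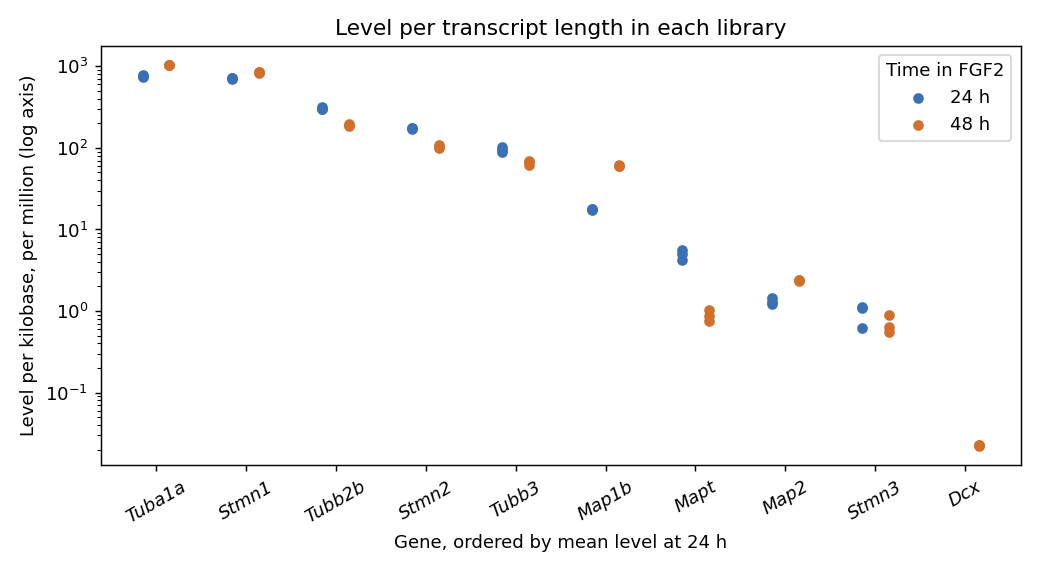
Level per kilobase of the longest coding transcript, scaled as TPM (log axis), of the 10 genes in each library at 24 h (blue) and 48 h (orange), ordered by the mean at 24 h. Map1b climbs from 17.7 to 60.8 and meets Tubb3, Mapt drops below Map2, and the 24 h libraries of Dcx, all at 0, are not drawn on the log axis.

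The mix of tubulin isotypes differed between the time points. Among the alpha-tubulin genes, taken per length, Tuba1a made up 21% ± 0.564 of the summed level at 24 h and 24.2% ± 0.203 at 48 h (SD, n = 3). Tuba1b was the main gene, at 61% ± 0.366 and 61.5% ± 0.193, values that overlapped between the times with the lengths used here. Tuba1c went from 12.8% ± 0.287 to 10.4% ± 0.063 of the family. Because these genes share most of their sequence, the division among them rests on how RSEM split the reads. Among the beta-tubulin genes, Tubb2b went from 10.5% ± 0.21 to 6.29% ± 0.168 and Tubb3 from 3.32% ± 0.219 to 2.17% ± 0.127. Tubb5 took the largest part and went from 50.2% ± 0.4 to 56.4% ± 0.317. Tubb3 was thus a minor isotype at both times, with no overlap between its values at 24 h and 48 h. These shares were not tested. On the scale per kilobase, the summed alpha-tubulin level was between 3621 and 3677 at 24 h and between 4220 and 4297 at 48 h. The summed beta-tubulin level was between 2887 and 2924 at 24 h and between 3012 and 3081 at 48 h.

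**Figure D4:**
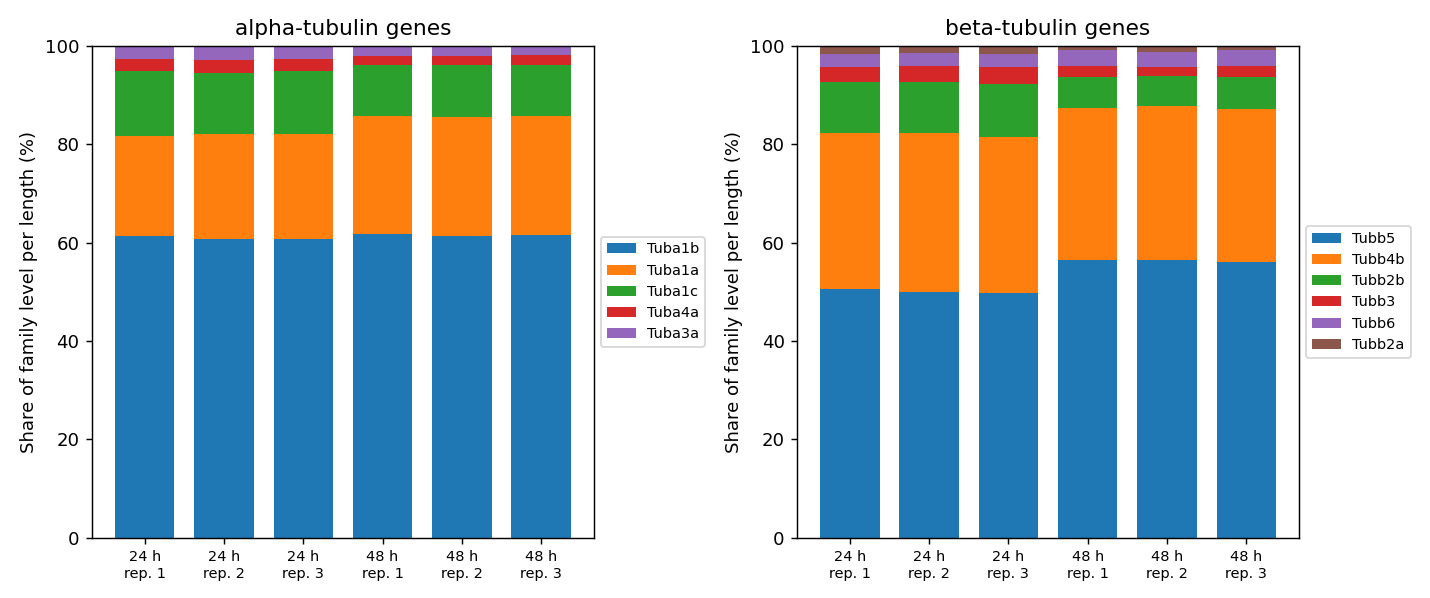
Share of each gene in the summed level per length of the alpha-tubulin genes (left) and the beta-tubulin genes (right), in % (vertical axes), in each of the 6 libraries; genes under 0.5% at 24 h are not drawn. Tuba1a widens from 21% to 24.2%, Tubb5 widens from 50.2% to 56.4%, and Tubb2b and Tubb3 narrow.

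The rest of the microtubule machinery was followed in 7 lists of 81 genes, of which 76 were tested. Of these, 26 were higher at 48 h, 24 were lower and 26 did not pass the threshold, and their median log2 fold change was -0.01. When library size was the only scaling, the split was 21 higher and 31 lower (40.4% of the calls higher), and over all genes it was 3779 higher and 5694 lower (39.9% higher). The 65.8% called compares with 62.8% over all genes tested. Called changes of at least 2-fold numbered 4: Map7d3, described with the MAPs, and 3 genes, named after their values were seen, that passed the filter on low counts only through the time point where they were high. Such genes had to differ, so no fold change or p is given for them, although each is among the calls of its list. The doublecortin-like kinase gene Dclk1 had 4, 6 and 7 counts at 24 h and 33, 20 and 21 at 48 h. Tubb4a, a beta-tubulin of the brain, had 13, 8 and 13 counts at 24 h and 30, 26 and 21 at 48 h. Tubg2, a gamma-tubulin, had 8.51, 20.2 and 27.1 counts at 24 h and 7.61, 1.08 and 6.53 at 48 h. Among the other alpha- and beta-tubulins, 5 of 10 tested rose and 3 fell. Tuba1b and Tubb5, the main isotypes of dividing cells, rose by 0.27 and 0.26 on the log2 scale (edgeR adjusted p = 2.59e-11 and 5.7e-11). Tuba1b averaged 1677 ± 12.1 CPM at 24 h and 2016 ± 10.3 CPM at 48 h, and Tubb5 averaged 1676 ± 2.25 and 2004 ± 23.6 CPM (SD, n = 3). Tubb6 rose by 0.40 on the log2 scale (adjusted p = 5.73e-08). Tubb4b changed by 0.05 (adjusted p = 0.00897), a call that was lost, with the sign turned, when library size was the only scaling (-0.007, adjusted p = 0.741), and lost without replicate 1 of 24 h (0.04, adjusted p = 0.0612). Exons of Tuba1b and Tubb4b overlap genes on the opposite strand, and whether the counting used strand is not given in the sources used here. The same holds for other genes described below, among them Map6d1, Tubgcp3, Tubgcp4, Tubgcp6, Tbcb, Tbcd, Tbce and Syn1.

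Among the other structural MAPs, doublecortin and stathmin relatives, 5 of 12 tested rose and 4 fell (median log2 fold change -0.04). The share called was 75%, against 62.8% of all genes tested. The 5 include Dclk1, which passed the filter only through the 48 h libraries, and became 3 when library size was the only scaling. Map7d3, of a family that recruits the motor kinesin-1 to microtubules, showed a larger fitted rise than Map1b. It averaged 14.1 ± 1.13 CPM at 24 h and 90.2 ± 2.26 CPM at 48 h (SD, n = 3), or 2.69 more on the log2 scale (standard error 0.05, edgeR adjusted p = 9.42e-17). Map7d1 of the same family rose by 0.62 (adjusted p = 1.19e-10). Map4, the MAP of most non-neuronal cells and the most abundant of this list, averaged 356.7 ± 1.78 CPM at 24 h and 259.1 ± 2.56 CPM at 48 h, a log2 fold change of -0.46 (adjusted p = 1.7e-12). Map6d1 changed by -0.67 (adjusted p = 0.0146), a call lost with DESeq2 (0.057) and when replicate 1 (0.0712) or replicate 2 (0.0516) of 24 h, or replicate 1 of 48 h (0.0589), was left out. Stmn4, the other neuronal stathmin, had 0 or 1 count per library.

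Of the genes for proteins that bind microtubule ends, 7 of 11 rose and 0 fell in edgeR's test (median log2 fold change 0.14), against 30.9% higher and 31.9% lower over all genes tested, and the same counts, 7 and 0, had an unadjusted p under 0.05. DESeq2 called 6 higher and 0 lower, limma voom 7 and 0, and 1 fell when library size was the only scaling. The polymerase Ckap5 averaged 332.9 ± 3.5 CPM at 24 h and 367.2 ± 5.08 CPM at 48 h (SD, n = 3), a log2 fold change of 0.14 (adjusted p = 5.89e-06). Camsap1, which protects minus ends, rose by 0.43 (adjusted p = 2.39e-09), and Clasp1, which stabilises plus ends, by 0.28 (adjusted p = 4.39e-07). Mapre3, an end-binding protein gene of neurons, changed by 0.52 (adjusted p = 0.0236), a call lost with DESeq2 (0.0843) and when replicate 3 of 24 h (0.124), replicate 1 of 48 h (0.0587) or replicate 3 of 48 h (0.104) was left out. The list of gamma-tubulin ring genes and rare tubulins had 0 genes higher and 5 lower of 9 in edgeR's test (median -0.13). The same counts, 0 and 5, had an unadjusted p under 0.05, against the same shares over all genes. The ring nucleates microtubules, and the list also holds the rare tubulins Tubd1 and Tube1. The 5 include Tubg2, which passed the filter only through the 24 h libraries. DESeq2 called 0 higher and 4 lower, and limma voom 0 and 5. Tubgcp4 changed by -0.30 (adjusted p = 6.59e-05) and Tubgcp6 by -0.19 (adjusted p = 0.000691). Tubg1, the main gamma-tubulin gene, changed by -0.13 (adjusted p = 0.0106) and Tubgcp3 by -0.15 (adjusted p = 0.00747). The call of Tubg1 was lost with DESeq2 (0.0701) and without replicate 3 of 48 h (0.0541), and that of Tubgcp3 without replicate 3 of 24 h (0.054). Tubg1 and Tubg2, near-identical genes, both had fractional counts in all 6 libraries, so the split between them is uncertain.

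Of the 20 tubulin-modifying and severing enzymes, 6 rose and 6 fell, or 60% called, against 62.8% of all genes tested. The vasohibins, which remove the last tyrosine of alpha-tubulin, moved in opposite directions: Vash1 changed by -0.83 (edgeR adjusted p = 1.73e-05) and Vash2 by 0.72 (adjusted p = 2.39e-05). Agtpbp1, which trims glutamates from tubulin tails, averaged 55.2 ± 1.81 CPM at 24 h and 35.4 ± 1.47 CPM at 48 h (SD, n = 3), a log2 fold change of -0.64 (adjusted p = 1.27e-09). Of the 8 kinases that phosphorylate MAPs, 1 rose and 4 fell, or 62.5% called. The count of 4 became 2 with the replicate block, with RLE scaling, with DESeq2, and when replicate 3 of 24 h or replicate 2 of 48 h was left out. Gsk3b, a tau kinase and a target of the starting medium, changed by -0.23 (adjusted p = 2.79e-06), Cdk5 by -0.55 (adjusted p = 8.81e-05) and Mark3 by 0.24 (adjusted p = 2.47e-06). Of the 6 tubulin folding cofactors, 2 rose, 2 fell and 2 were not called, or 66.7% called. Tbce rose by 0.25 (adjusted p = 0.000549) and Tbcd fell by 0.12 (adjusted p = 0.00218). The other calls, Tbcb up and Tbcc down, were each lost with DESeq2 (adjusted p = 0.069 and 0.0952) and without replicate 1 of 48 h (0.137 and 0.0781). They were also lost with library size as the only scaling (0.241) or without replicate 1 of 24 h (0.188) for Tbcb, and without replicate 2 of 24 h or of 48 h for Tbcc (0.131 and 0.0655).

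**Figure D5:**
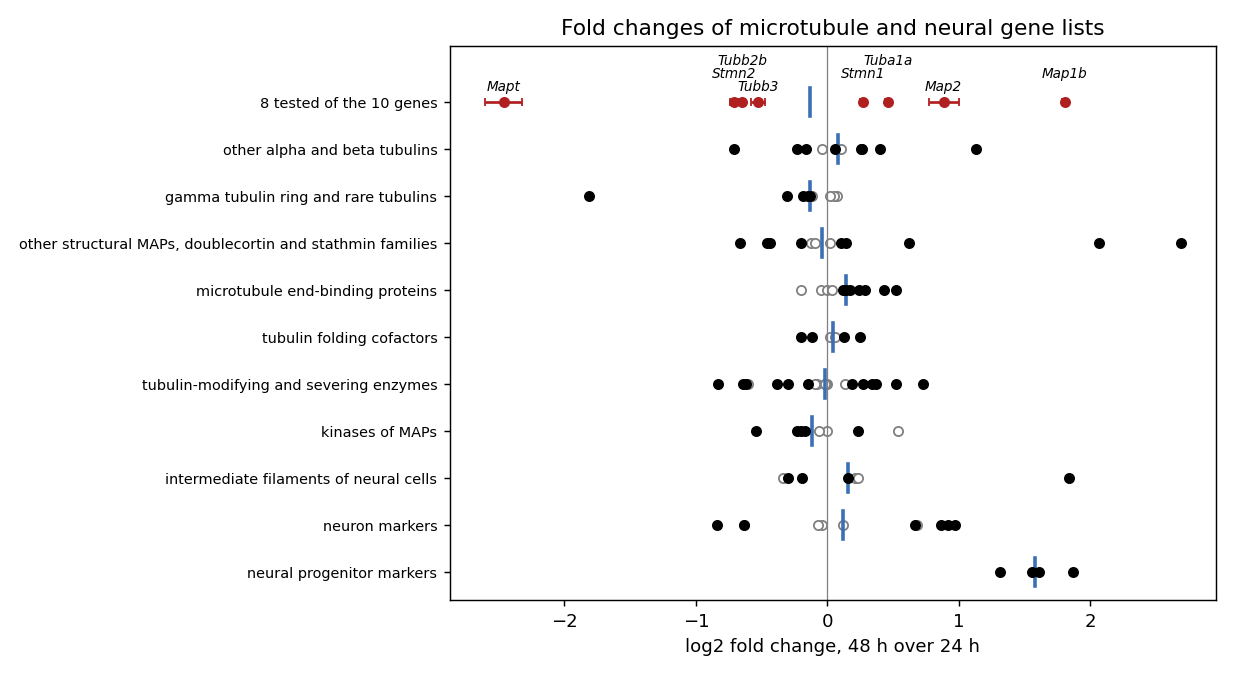
Log2 fold changes, 48 h over 24 h (horizontal axis), of the 8 tested genes described (top row, red, with standard errors and names) and of the tested genes of 8 further microtubule and filament lists and 2 neural marker lists. Filled points passed an adjusted p of 0.05 in edgeR's test, open points did not, and blue bars are list medians; Map1b and Mapt lie at the 2 ends of the top row, and the bars of the microtubule lists lie near 0.

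Markers of neurons were measured beside these genes. Of 14 neuron markers, 11 were tested, of which 4 rose and 2 fell (median log2 fold change 0.12). The share called was 54.5%, against 62.8% of all genes tested. The summed level of the 14 neuron markers was 191 to 195.7 CPM at 24 h and 216.1 to 228.4 CPM at 48 h. Most of it came from Crmp1 and Dpysl3, which encode collapsin response mediator proteins that bind tubulin. Crmp1 averaged 79.7 ± 4.21 CPM at 24 h and 126.2 ± 5.3 CPM at 48 h (SD, n = 3), a log2 fold change of 0.67 (edgeR adjusted p = 2.11e-10). Dpysl3 went down, from 62.3 ± 3.61 to 34.8 ± 1.51 CPM, by -0.84 on the log2 scale (adjusted p = 1.54e-10). The RNA-binding protein genes Elavl3 and Elavl4 rose by 0.97 and 0.87 (adjusted p = 4.09e-06 and 2.4e-05) and the transcription factor gene Neurod1 by 0.92 (adjusted p = 5.08e-06), all averaging under 10 CPM. An exon of Neurod1 overlaps a gene on the opposite strand. The other markers ranged from moderate to near 0. Syn1, which encodes a protein of synaptic vesicles, had 222 to 289 counts per library and averaged 11.6 ± 0.574 CPM at 24 h and 11.1 ± 1.01 CPM at 48 h (SD, n = 3; log2 fold change -0.07, adjusted p = 0.508). Gap43, which encodes a growth cone protein, had 58 to 107 counts and fell by 0.64 (adjusted p = 0.000937). Dpysl5 changed by 0.12 (adjusted p = 0.0751). The lowest were Syp with 14 to 25 counts per library, Rbfox3 with 6 to 18, Snap25 with 4 to 12, Syt1 with 2 to 9, and the transcription factor genes Neurog2 with 0 to 3 and Nhlh1 with 0 or 1. Of the 6 neural progenitor markers 4 were tested and called higher, against 30.9% of all genes tested called higher. One of these 4, Zic1, had 11, 7 and 9 counts at 24 h and 35, 39 and 28 at 48 h. It passed the filter only through the 48 h libraries. Hes5, with 0 or 1 count per library, and Fabp7, with 1 to 9, were too low to be tested. The summed level of the 6 went from 47.1 to 50.8 CPM at 24 h to between 137.5 and 142.6 CPM at 48 h. Sox11 rose by 1.61 and Pax6 by 1.56 on the log2 scale (adjusted p = 7.04e-14 and 3.25e-12). Nes, a progenitor gene outside this list, changed by -0.19 and is given with the intermediate filaments. All 4 formative markers rose, and their sum lay between 188.6 and 213.4 CPM at 24 h and between 1706 and 1741 CPM at 48 h. All 7 naive markers fell, and their sum lay between 2851 and 3006 CPM at 24 h and between 945.9 and 1002 CPM at 48 h. The part of these changes in cell state in the levels of the 10 genes was not tested.

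The summed markers of other cell types that such a culture could hold were low. The 7 fibroblast markers summed to 2.54 to 3.35 CPM at 24 h and 2.53 to 3.83 CPM at 48 h, with Lum and Postn at 0 in every library. The 6 primitive endoderm markers summed to 6.46 to 8.3 CPM at 24 h and 3.43 to 3.82 CPM at 48 h. Gata4, of these 6, had 97, 131 and 148 counts at 24 h and 54, 45 and 49 at 48 h, and was called lower. The 4 mesoderm markers, none of them tested, summed to at most 0.9 CPM. The part of such cell types in the levels of the 10 genes was not tested.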

How the data were processed

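The authors deposited estimated counts per gene from RSEM, 1 column per library, not scaled for depth or length. The submitters' processing notes name cutadapt 1.9.1, STAR 2.5.2, RSEM 1.3.0 and GRCm38, without roles. The annotation, the use of strand and filters are not given in the sources used here. Every column matched 1 sample title. Symbols came from GENCODE M21 (GRCm38), which matched 51633 of 51912 identifiers.

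Estimated counts were rounded, and genes were kept by filterByExpr (minimum count 10), which left 14889. Libraries were scaled by TMM in edgeR 4.0.16 (R 4.3.3), whose quasi-likelihood test, with time point as the single factor, compared 48 h with 24 h over all genes, adjusted by Benjamini-Hochberg, with a threshold of 0.05. The standard error of a log2 fold change is its size over the square root of F. Levels per length divide counts by the longest coding transcript in GENCODE M21. The 10 genes and the 15 other lists were chosen with earlier results of these data known. Besides the 10 genes, a rule picked from each list up to 3 tested genes with the highest mean CPM. It also picked up to 3 called genes with the largest change at a mean of at least 1 CPM, and markers at or near 0. Some genes which that rule names are given in counts only, and others, such as Mapre1, Camsap3, Ttll4, Fignl1 and Sox1, are not described. The formative markers, and the naive markers other than Nanog and Prdm14, are given only together as list counts and sums. Stmn4, Tuba1c, Dclk1, Tubb4a, Tubg2, Tuba4a, Syn1, Gap43 and Zic1 were added after their values were seen. Alternatives were RLE or library size scaling, 2 other filters, DESeq2 1.42.0, limma voom (limma 3.58.1), a replicate block, leaving out each library, and other lengths.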

Additional observations from a re-analysis of the deposited data

How the results depend on the processing

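In all 13 alternative fits the 8 tested members stayed past the threshold in the same direction (104 values), with log2 fold changes from 1.75 to 1.82 for Map1b, 0.82 to 0.95 for Map2, -2.57 to -2.35 for Mapt, 0.21 to 0.28 for Stmn1, -0.77 to -0.68 for Stmn2, -0.59 to -0.47 for Tubb3, -0.71 to -0.62 for Tubb2b and 0.40 to 0.48 for Tuba1a. These fits reuse the libraries and the contrast that chose the set, so they show only how the values depend on processing. The number of changed genes lay between 7986 (DESeq2) and 9792 (every gene with a count), and between 8737 and 8904 with 1 library left out. With the replicate block, 9235 genes changed and no member's call did. Deviations of same-numbered libraries correlated at -0.046, -0.043 and -0.009, so no effect shared by the replicate number was seen. With 3 libraries per time point, this cannot show whether same-numbered libraries came from the same culture. Of 829 values of the other named genes, 24 kept their direction but missed the threshold (in Tubb4b, Tubg1, Tubgcp3, Map1s, Map6d1, Mapre3, Tbcb, Tbcc and Nes), 2 passed it newly (Hdac6 and Thy1), 9 turned sign and the other 794 did none of these. Those that turned were Tubb4b (-0.007), Tubgcp2 (-0.01) and Tbca (-0.038) with library size as the only scaling, Hdac6 without replicate 2 of 48 h (0.002; range without single libraries -0.029 to 0.002), and Gsk3a with RLE (0.004), DESeq2 (0.004) and without 3 single libraries (0.012, 0.009 and 0.005; range -0.018 to 0.012). Of these 5 genes, Tubb4b alone was called in the fit reported, and it also lost that call. With the mean length of the coding transcripts the family shares became 20.2% and 23.6% for Tuba1a at 24 h and 48 h, 8.12% and 4.76% for Tubb2b, and 3.63% and 2.32% for Tubb3. With raw counts that of Tubb3 became 2.82% and 1.81%. The share of Tuba1b became 58.95% and 60.03% with the mean length, and 58.78% and 59.63% with raw counts. In neither of these did its 24 h and 48 h values overlap, unlike those in the setting reported. Tubb5 became 60.3% and 66.3% with the mean length, and 60.4% and 66.7% with raw counts. These shifts follow from the lengths used. Depth limits Dcx and Stmn3, which had at most 13 counts in a library.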

Other observations

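Intermediate filament genes, the other filament system of neural cells, were outside the lists above. Of 7 genes, 2 rose, 2 fell and 3 did not pass the threshold in edgeR's test, with a median log2 fold change of 0.16. The share called was 57.1%, against 62.8% of all genes tested. Ina, which encodes the neuronal filament protein alpha-internexin, averaged 25.2 ± 0.939 CPM at 24 h and 89.8 ± 1.65 CPM at 48 h (SD, n = 3), or 1.83 more on the log2 scale (standard error 0.04, adjusted p = 5.65e-16). Nefh, the heavy neurofilament subunit, rose by 0.16 (adjusted p = 0.00131). Vim, the vimentin gene of many dividing cells, averaged 116.4 ± 8.43 CPM at 24 h and 94.9 ± 1.44 CPM at 48 h, a log2 fold change of -0.30 (adjusted p = 8.59e-06). Nes, the nestin gene of neural progenitors, changed by -0.19 (adjusted p = 0.0157), a call lost with DESeq2 (adjusted p = 0.0554), and when replicate 2 (0.0949) or replicate 3 (0.0652) of 48 h was left out. Exons of Ina overlap a gene on the opposite strand.

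Tuba4a shares 48.8% of its 50-base stretches with another gene, nearly all with Stk16 on the opposite strand, and had whole-number counts in all 6 libraries, unlike Tuba1a, Tubb2b and Stmn1. It was chosen after its values were seen. Dcn, a fibroblast marker, had 0 counts in each 24 h library and 23, 25 and 32 at 48 h, while Col1a1 had 16 to 30 counts at 24 h and 4 to 9 at 48 h. No explanation of these values was tested.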
